A study of Mus musculus with 7 samples.

Results

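Conjugation is the step of drug metabolism that joins a foreign or endogenous molecule to a polar group, which makes it easier to excrete. UDP-glucuronosyltransferases (UGT) in the endoplasmic reticulum transfer a sugar, usually glucuronic acid, to steroids, bile acids, phenols and many drugs. Cytosolic sulfotransferases (SULT) transfer a sulfate group, and glutathione S-transferases (GST, with the membrane-bound MGST) join glutathione to reactive electrophiles. Hepatocytes hold many of these enzymes, and nuclear receptors and the oxidative stress factor NRF2 are known to control a number of their genes.

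The drug-conjugating transferase genes were taken by name, as every gene with a symbol of the *Ugt1* to *Ugt3*, *Sult*, *Gst* (alpha, mu, pi, theta, kappa and omega classes) or *Mgst* families. Single genes were not picked by their measured change, but the families were chosen with earlier results of these data known. The names gave 47 of the 19938 genes tested, namely 10 UGT, 16 SULT, 18 GST and 3 MGST genes. Primary hepatocytes of male C57BL/6J mice, cultured with insulin and dexamethasone, received 1 µg of a mimic of miR-709 or, as control, of the nematode microRNA Cel-239b, and total RNA was collected 24 h after transfection. There were 4 miR-709 arrays (replicates A to D) and 3 Cel-239b arrays (replicates B to D) on a mouse gene expression array. Neither the sample labels nor the methods say that replicates came from separate mice or cell isolations, so p-values here measure only the spread between these arrays.

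Values are log2 signals, so a difference of 1 is a doubling. Signals ranged from 1.92 to 14.08, with array medians between 5.04 and 5.07. Each gene was represented by its brightest probe set with a single gene symbol, and 12 further probe sets that list a transferase symbol beside other symbols were left out of the 47. These 12 carry 17 transferase names that had no probe set of their own, among them 8 *Ugt1a* names on a single probe set. Of the 66 RefSeq coding genes that match the family names, 47 could be measured alone. A gene was called higher or lower at an adjusted p under 0.05 from limma (moderated linear model, 2-sided, Benjamini-Hochberg over all 19938 genes).

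Of 18 measured hepatocyte markers, 10 had a mean log2 signal of at least 10. Markers of the other liver cells were mostly dim. A mean of at least 6 was reached by 0 of 15 sinusoidal endothelial, 2 of 19 Kupffer cell and leukocyte, 3 of 10 cholangiocyte and 4 of 18 stellate cell markers, with *Vim*, an intermediate filament of many cultured cells, at 12.2.

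With miR-709, 4 of the 47 transferase genes were higher and 0 were lower, where 1.81% of all genes were called higher and 1.47% lower (3.28% in either direction). The 4 were *Ugt3a1* (1.61-fold), *Ugt2b35* (1.69-fold), *Ugt2b1* (1.29-fold) and *Gstm3* (1.58-fold). Of the 47 genes, 40 had a log2 fold change above 0, against 54.9% of all genes, and their median was 0.11 (all genes 0.01). Single changes ran from -0.12 to 0.76. At an unadjusted p under 0.05, limma put 18 of the 47 genes higher and 0 lower, where 9.15% and 5.83% of all genes were. The methods' t-test put 11 higher and 0 lower, where 7.77% and 4.69% of all genes were. None of the 4 calls held with that test, whose Benjamini-Hochberg adjusted p was 0.12 for *Ugt2b35*, 0.079 for *Ugt3a1*, 0.11 for *Ugt2b1* and 0.26 for *Gstm3*. All 4 miR-709 arrays lay above all 3 Cel-239b arrays for 12 of the 47 genes, which held for 7.44% of all genes, and they lay below for 0, which held for 4.91%.

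**Figure D1:**
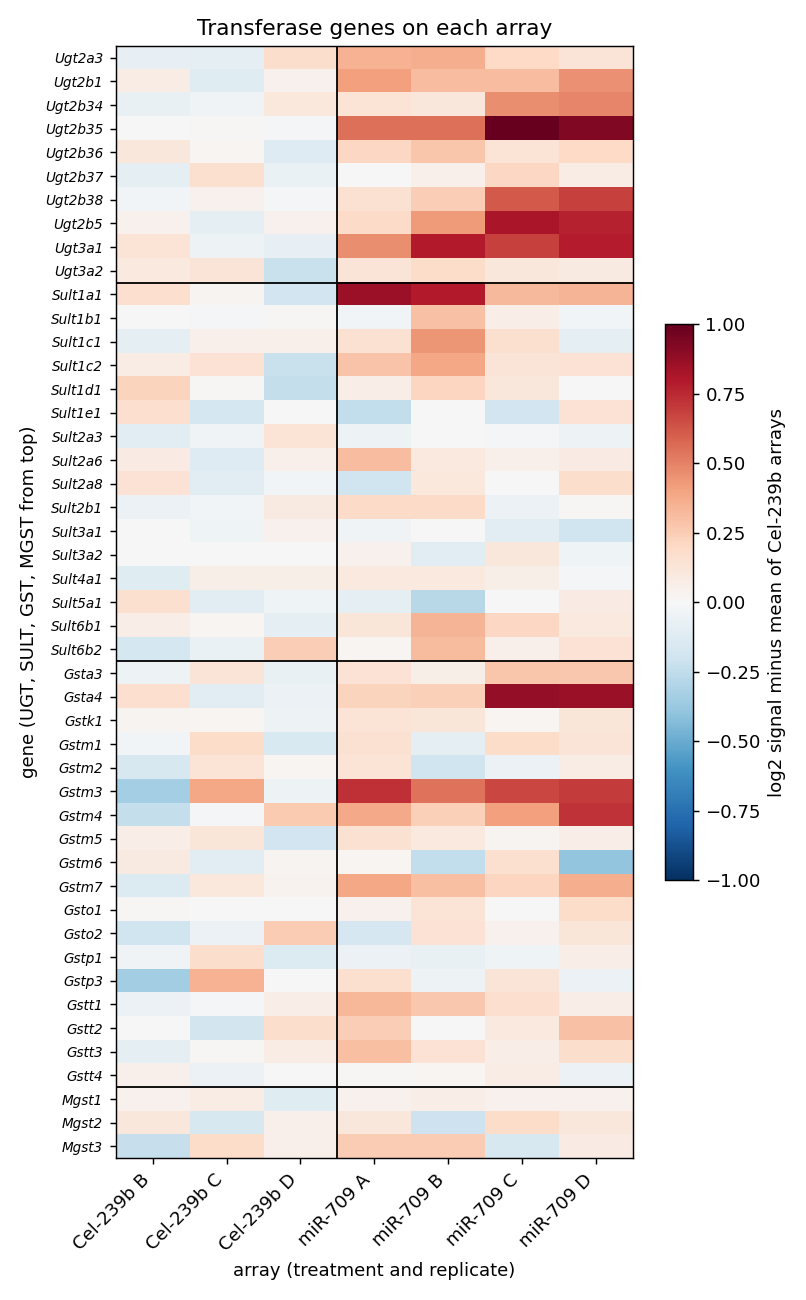
Log2 signal of the 47 transferase genes (rows, by family) on the 7 arrays (columns), minus the mean of the 3 Cel-239b arrays of the same gene. Red is higher and blue lower, and the reddest cells are *Ugt2b35* and *Gsta4* on miR-709 arrays C and D and *Sult1a1* on miR-709 array A.

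The UGT genes had the highest median of the 4 families. All 10, which are *Ugt2* and *Ugt3* genes, had a log2 fold change above 0, with a median of 0.34. Of them, 3 were called higher and 7 had arrays that did not overlap. The UGT probe sets with several symbols are not among the 10. That of 8 *Ugt1a* names had a log2 fold change of 0.03, and that of *Ugt2a1* and *Ugt2a2*, dim at 2.86 with Cel-239b, had -0.16. The 2 shared by *Ugt3a1* and *Ugt3a2* had 0.18 and 0.20, and none of these was called. The SULT genes had a median of 0.08, with 12 of 16 above 0 and 0 called. The GST genes had a median of 0.10, with 15 of 18 above 0 and 1 called, and the 3 MGST genes lay between 0.05 and 0.11 with 0 called. Of the 47 genes, 30 had a mean log2 signal of at least 6. Their median change was 0.18, and 11 of the 12 genes without overlap were among them. For the 17 dimmer genes the median was 0.06. The families differ in this respect, since 9 of 10 UGT and 16 of 18 GST genes but only 3 of 16 SULT genes had a mean of at least 6.

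**Figure D2:**
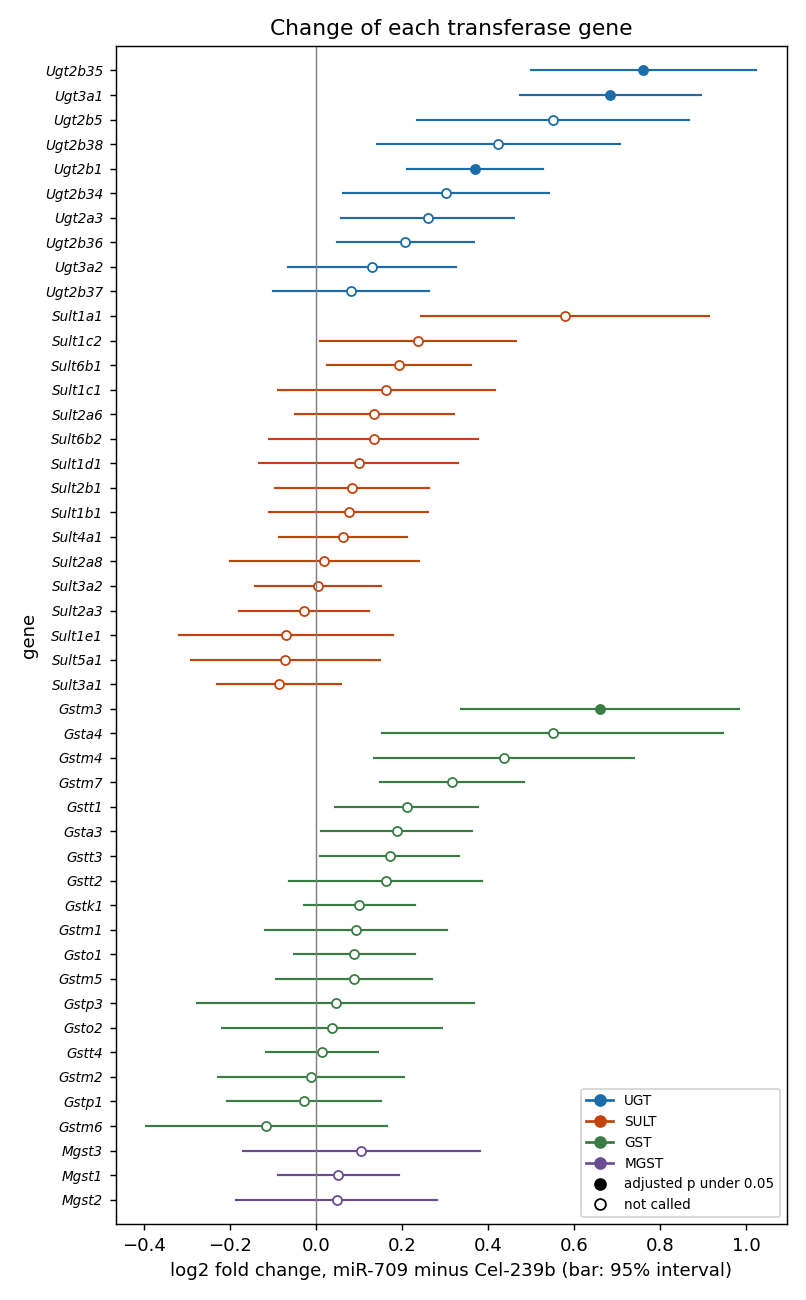
Log2 fold change of each transferase gene (miR-709 minus Cel-239b), with its 95% interval from limma as a bar, coloured by family. Filled points are the 4 genes called at an adjusted p under 0.05, all of them to the right of 0, and none of the 47 intervals lies wholly below 0.

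Most of the measured UGT genes lie in the same cluster. The RefSeq gene order of mouse genome GRCm38.p6 was read for the 47 measured genes only, so genes between them are left out. In this order 7 *Ugt2b* genes and *Ugt2a3* come one after another on chromosome 5, followed by *Sult1b1*, *Sult1d1* and *Sult1e1*. Promoter sequences from RefSeq, from 250 bases before to 50 after each gene start, were present for 43 of the 47 genes. The core AGGTCA, to which many nuclear receptors bind, was searched on both strands and lay in the promoters of 10 of 43 members, while 18.1% of all 27025 genes with a promoter hold it. Of the 10, 5 are *Ugt2b* genes, which are close relatives. These 5 are shown as windows of 30 bases, with the core in capitals, because their genes range from the highest to the lowest UGT change. All are on GRCm38.p6, at chr5:87000633-87000662 on the plus strand for *Ugt2b35*, and on the minus strand at chr5:87140345-87140374 for *Ugt2b5*, chr5:87424211-87424240 for *Ugt2b38*, chr5:87092563-87092592 for *Ugt2b36* and chr5:87254810-87254839 for *Ugt2b37*.
Ugt2b35: acaggtttacacAGGTCAcaactcctaact
Ugt2b5: ttcttggataaaAGGTCAagcagtgacaga
Ugt2b38: ttcttggataaaAGGTCAagcagtgacaaa
Ugt2b36: ttcttagataaaAGGTCAagcagtgacaga
Ugt2b37: ttcttggataaaAGGTCAagcagtgacaga

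The windows of *Ugt2b5* and *Ugt2b37* are identical in 30 of 30 bases, and those of *Ugt2b36* and *Ugt2b38* match *Ugt2b5* in 29 of 30, whereas that of *Ugt2b35* matches it in 8. Counted from the gene start, the core begins at position -22 in *Ugt2b5*, -25 in *Ugt2b36* and *Ugt2b38*, -39 in *Ugt2b37* and -215 in *Ugt2b35*. The log2 fold changes were 0.76 for *Ugt2b35*, 0.55 for *Ugt2b5*, 0.42 for *Ugt2b38*, 0.21 for *Ugt2b36* and 0.08 for *Ugt2b37*. *Ugt2b37* was also the dimmest of them, with a mean log2 signal of 4.35 with miR-709, and its name and that of *Ugt2a3* were chosen after their values were seen. A match is a run of letters and was not tested as a site, and close relatives share such letters by descent.

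*Ugt2b35* had the largest change of the 47 genes. Its log2 signals were 8.11, 8.12 and 8.09 on Cel-239b arrays B, C and D and 8.66, 8.66, 9.12 and 9.03 on miR-709 arrays A, B, C and D. All miR-709 arrays were above, with C and D the highest. The mean rose from 8.11 ± 0.015 (SD, n = 3) to 8.87 ± 0.24 (SD, n = 4), and the log2 fold change was 0.76 (standard error 0.12, 95% interval 0.50 to 1.02, limma adjusted p = 0.0075).

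*Ugt2b1*, another UGT of the same cluster, was more even than *Ugt2b35* between the miR-709 arrays and less even between the Cel-239b arrays. It read 7.21, 7.01 and 7.18 with Cel-239b and 7.54, 7.44, 7.44 and 7.59 with miR-709, with no overlap. The log2 fold change was 0.37 (standard error 0.07, limma adjusted p = 0.023). This call is not stable to the choice of arrays. The adjusted p was above 0.05 without Cel-239b replicate C (0.089), Cel-239b replicate D (0.051), miR-709 replicate A (0.072) or miR-709 replicate D (0.076), while the log2 fold change stayed between 0.31 and 0.41 in the alternatives run.

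*Ugt2b5* and *Ugt2b38* had the next largest changes of the cluster. *Ugt2b5* read 7.74, 7.61 and 7.74 with Cel-239b and 7.89, 8.12, 8.51 and 8.47 with miR-709 (change of 0.55 on the log2 scale, standard error 0.14, limma adjusted p = 0.079). *Ugt2b38* read 6.15, 6.22 and 6.16 against 6.33, 6.42, 6.79 and 6.86 (0.42, standard error 0.13, limma adjusted p = 0.13). In both, the miR-709 arrays lay above the Cel-239b arrays and spread more widely, with C and D above A and B. *Ugt2b34*, the brightest UGT probe set, had the same order, from 10.75, 10.79 and 10.93 to 10.96, 10.94, 11.29 and 11.31 (0.30, limma adjusted p = 0.21). *Ugt2b36* (0.21, limma adjusted p = 0.19) and *Ugt2a3* (0.26, limma adjusted p = 0.20) had the reverse order, with C and D below A and B. Probe sets of close relatives such as the *Ugt2b* genes can take up each other's transcripts, so their values need not be separate readings. The extent of this was not tested. The sulfotransferase genes at the end of the cluster had log2 fold changes of 0.08 for *Sult1b1*, 0.10 for *Sult1d1*, which sulfates catecholamines, and -0.07 for the estrogen sulfotransferase *Sult1e1*.

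**Figure D3:**
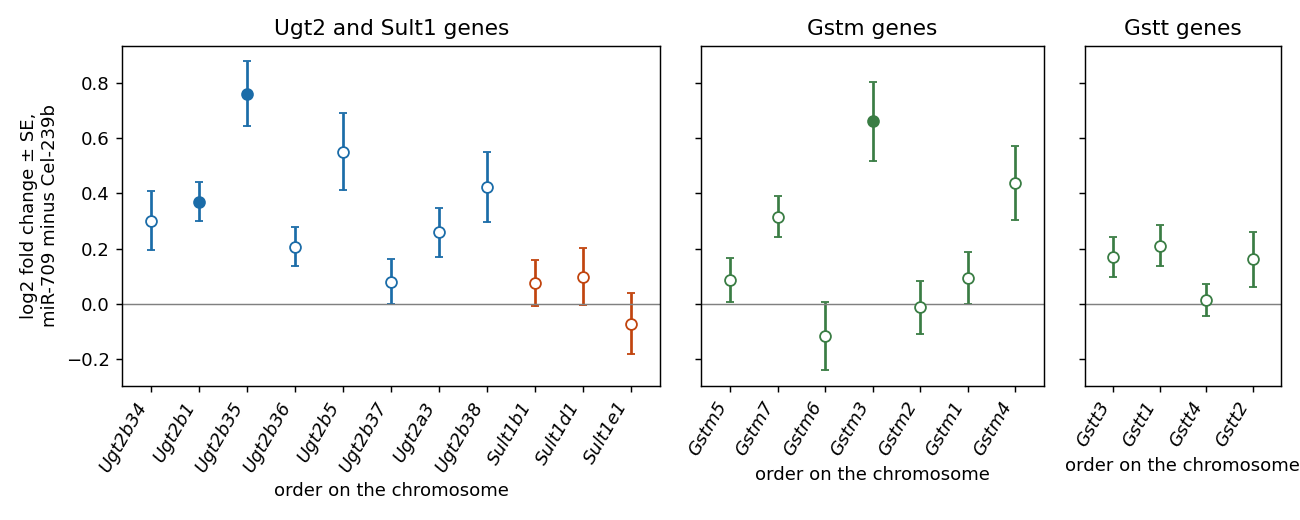
Log2 fold change (miR-709 minus Cel-239b, bars are the standard error) of transferase genes in their order on the chromosome, for the *Ugt2* and *Sult1*, *Gstm* and *Gstt* clusters. Filled points are called at an adjusted p under 0.05. Measured genes next to each other in this order differ, with *Gstm3* at 0.66 between *Gstm6* at -0.12 and *Gstm2* at -0.01.

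*Ugt3a1* belongs to a separate UGT branch, and its human counterpart transfers N-acetylglucosamine in place of glucuronic acid. Its log2 signals were 6.10, 5.91 and 5.88 with Cel-239b and 6.43, 6.76, 6.65 and 6.75 with miR-709. The arrays did not overlap, and array A was the lowest of the miR-709 arrays. The mean rose from 5.96 ± 0.12 (SD, n = 3) to 6.65 ± 0.15 (SD, n = 4), and the log2 fold change was 0.68 (standard error 0.09, 95% interval 0.47 to 0.89, limma adjusted p = 0.0041). Its relative *Ugt3a2* had a log2 fold change of 0.13 (limma adjusted p = 0.55). The 2 probe sets annotated to both genes of this branch had log2 fold changes of 0.18 and 0.20 and were not called, so the probe sets of this branch disagree on the size of the change.

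The promoter of *Ugt3a1* held the letters GTTAAT, a core of HNF1 binding, which occur on either strand in 8.24% of all promoters and in 8 of the 43 members with one. In the window below they read as the reverse complement, in capitals, at chr15:9279694-9279723 on the plus strand of GRCm38.p6. *Sult1a1*, at chr7:126676633-126676662 on the minus strand, also held them. The genes shown had the largest log2 fold changes of the 8, at 0.68 for *Ugt3a1* and 0.58 for *Sult1a1*. The others of the 8 ran from -0.03 to 0.26, and none of them was called. Whether these letters bear on the changes was not tested.
Ugt3a1: gacaagttaaaaATTAACtcttcacctgtt
Sult1a1: atgccagagtggGTTAATtagaaaagtccc

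*Sult1a1*, the phenol sulfotransferase, stood out among the sulfotransferases. It read 9.36, 9.22 and 9.0 with Cel-239b and 10.05, 9.99, 9.52 and 9.53 with miR-709. The arrays did not overlap, but here A and B were the highest, the opposite order to *Ugt2b35* and *Ugt2b5*. The log2 fold change was 0.58 (standard error 0.15, 95% interval 0.24 to 0.91), and the limma adjusted p of 0.082 missed the threshold. Where only genes with a mean signal of at least 5 or at least 6 were tested, 7 of the 30 members left were called higher in either case, with *Sult1a1*, *Ugt2b5* and *Gstm7* added, and 4.42% and 6.43% of the genes tested were.

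None of the other sulfotransferases was called. *Sult1d1*, the brightest, read 10.18, 9.97 and 9.72 against 10.02, 10.17, 10.07 and 9.96, which overlap. *Sult1c2* (log2 fold change 0.24), *Sult6b1* (0.19), *Sult1c1* (0.16), *Sult2a6* (0.14) and *Sult3a1* (-0.09) had mean signals below 5, and their limma adjusted p-values ran from 0.26 to 0.59. Changes are compressed in signals this low, so these values do not show that the genes did not change. Besides *Sult1a1*, *Sult6b1* had arrays that did not overlap, at 2.50 to 2.66 with Cel-239b and 2.69 to 2.93 with miR-709.

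*Gstm3*, a mu class transferase, was the called gene of the glutathione S-transferases. It read 10.37, 11.10 and 10.66 with Cel-239b and 11.44, 11.25, 11.38 and 11.41 with miR-709. The 4 miR-709 arrays were close together, while the Cel-239b arrays were spread over 10.37 to 11.10. The mean rose from 10.71 ± 0.37 (SD, n = 3) to 11.37 ± 0.084 (SD, n = 4), and the log2 fold change was 0.66 (standard error 0.14, 95% interval 0.34 to 0.98, limma adjusted p = 0.041). Of the 7 fits that leave out an array, the gene was called only in that without Cel-239b replicate C, and the adjusted p of the other 6 ran from 0.084 to 0.13. *Gstm3* has a second probe set, which read 9.41, 9.86 and 9.38 with Cel-239b and 10.54, 10.24, 10.62 and 10.50 with miR-709, a log2 fold change of 0.93 (standard error 0.13, limma adjusted p = 0.0056 over 21789 probe sets). Both probe sets thus rose, and on both Cel-239b array C was the highest control.

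The *Gstm* genes form a chromosomal cluster of their own, and their changes were uneven. *Gstm4* read 8.26, 8.48 and 8.76 with Cel-239b and 8.88, 8.74, 8.91 and 9.22 with miR-709 (log2 fold change 0.44, limma adjusted p = 0.15), with a slight overlap. *Gstm7* read 6.61, 6.85 and 6.78 against 7.13, 7.05, 6.96 and 7.11, without overlap (0.32, standard error 0.07, limma adjusted p = 0.057). *Gstm1*, a mu class enzyme abundant in liver, had a log2 fold change of 0.09 (95% interval -0.12 to 0.30), and *Gstm2* and *Gstm6* lay at -0.01 and -0.12. Probe sets of such close relatives can take up each other's transcripts, so part of a signal may belong to a neighbour.

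In the alpha class, *Gsta4*, which conjugates the lipid peroxidation product 4-hydroxynonenal, divided the miR-709 arrays. It read 9.20, 8.92 and 8.97 with Cel-239b, 9.25 and 9.27 on miR-709 arrays A and B and 9.91 and 9.89 on C and D. The log2 fold change was 0.55 (standard error 0.18, limma adjusted p = 0.16). *Gsta3* showed a smaller change, from 9.49, 9.67 and 9.47 to 9.69, 9.60, 9.82 and 9.81 (0.19, limma adjusted p = 0.30). The core TGACNNNGC of NRF2 binding, on either strand, lay in the promoters of *Gsta3*, *Gstm5*, *Gstm7* and *Mgst1*, 4 of 43 members, and in 14.0% of all promoters. The form of this core that is longer by an A at its end lay in that of *Gsta3* (3.45% of all promoters). The other cores searched on both strands were AGTTCA of nuclear receptors in 9 of 43 members (15.7% of all promoters), GCGTG of AHR in 8 (35.2%) and TATAAA in 11 (15.7%). The 4 probe sets that list several alpha class symbols together read 10.98 to 11.40 with Cel-239b, 10.96 to 11.34 on miR-709 arrays A and B and 11.39 to 11.82 on C and D. None of the 12 probe sets with several symbols was called (0 of 12 by limma over 28853 probe sets, 3 of 12 at an unadjusted p under 0.05), and their log2 fold changes ran from -0.16 to 0.23.

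*Gstp1*, the pi class enzyme and the brightest GST probe set, read 12.57, 12.78 and 12.47 against 12.55, 12.53, 12.56 and 12.67, with a log2 fold change of -0.03 (95% interval -0.21 to 0.15). In the theta class *Gstt1* read 8.72, 8.77 and 8.85 against 9.11, 9.05, 8.95 and 8.85 (0.21, limma adjusted p = 0.21), and the 4 *Gstt* genes lay between 0.01 and 0.21. Microsomal *Mgst1*, which protects membranes from lipid peroxides, was not called, with 11.29, 11.32 and 11.12 against 11.29, 11.31, 11.29 and 11.29 (0.05, 95% interval -0.09 to 0.19). *Mgst2* and *Mgst3*, which act in leukotriene metabolism, had log2 fold changes of 0.05 and 0.11, with limma adjusted p-values of 0.88 and 0.755.

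**Figure D4:**
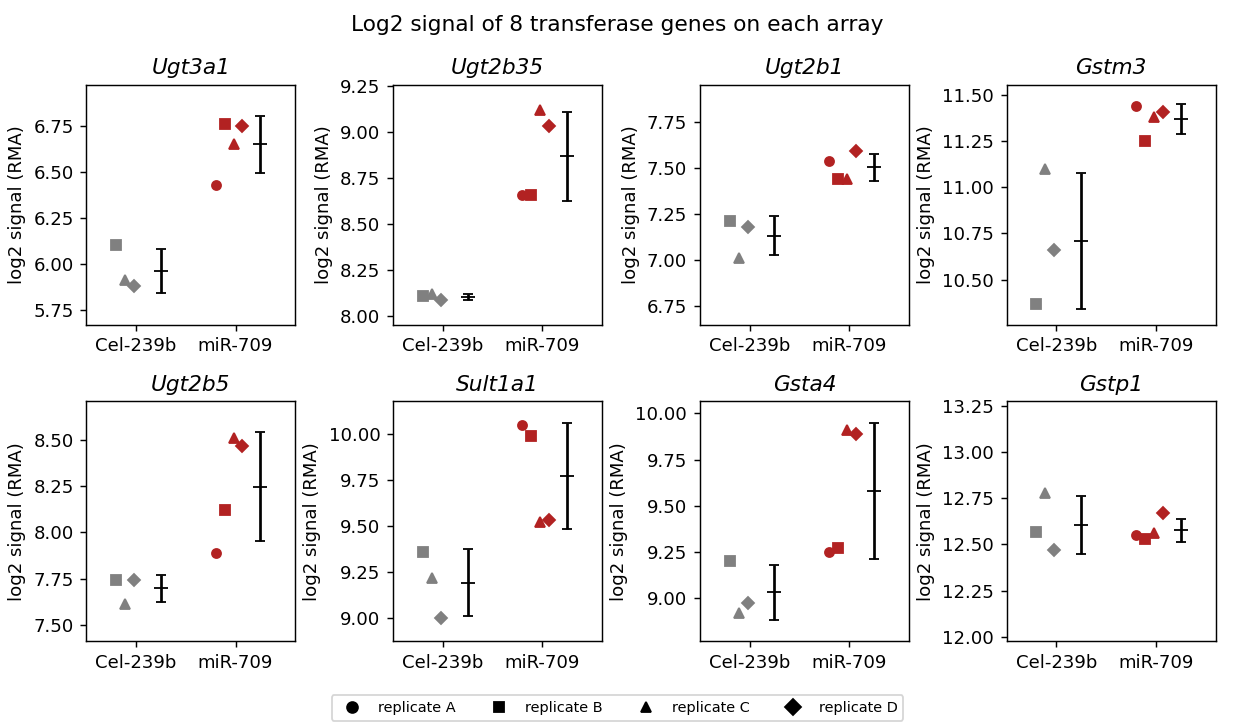
Log2 signals of 8 transferase genes on each array, with the mean and SD of each treatment as a black bar and the replicate letter as the symbol. Every panel spans the same range, and *Ugt2b35*, *Ugt2b5* and *Gsta4* have miR-709 arrays C and D on top, *Sult1a1* has A and B on top, and *Gstp1* overlaps.

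In some of these genes miR-709 arrays C and D thus lay apart from A and B, in either direction. Interferon-stimulated genes, which encode antiviral proteins, divided the same arrays. The mean log2 signal of 24 such genes, relative to their Cel-239b mean, was -0.09 and -0.02 on miR-709 arrays A and B and 0.87 on both C and D, with -0.16, -0.05 and 0.21 on Cel-239b arrays B, C and D. None of the 24 was called between treatments (5 at an unadjusted p under 0.05 by limma). The 7 *Ugt2b* genes averaged 0.24, 0.28, 0.51 and 0.51 on miR-709 arrays A, B, C and D by the same measure. The SULT genes averaged 0.09, 0.18, 0.06 and 0.05, and the GST genes 0.18, 0.09, 0.18 and 0.21. Arrays C and D were both above A and B for 10 of the 47 genes and both below for 12, where all genes gave 17.3% and 18.0%. These counts are not far from the shares of all genes, so they do not mark a trait of the transferases. The part of the interferon signal in these results was not tested. Without miR-709 arrays C and D, a fit chosen in view of these data, 2 transferase genes were called higher, *Ugt2b35* and *Sult1a1*, and the limma adjusted p was 0.11 for *Ugt3a1*, 0.17 for *Ugt2b1* and 0.32 for *Gstm3*.

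**Figure D5:**
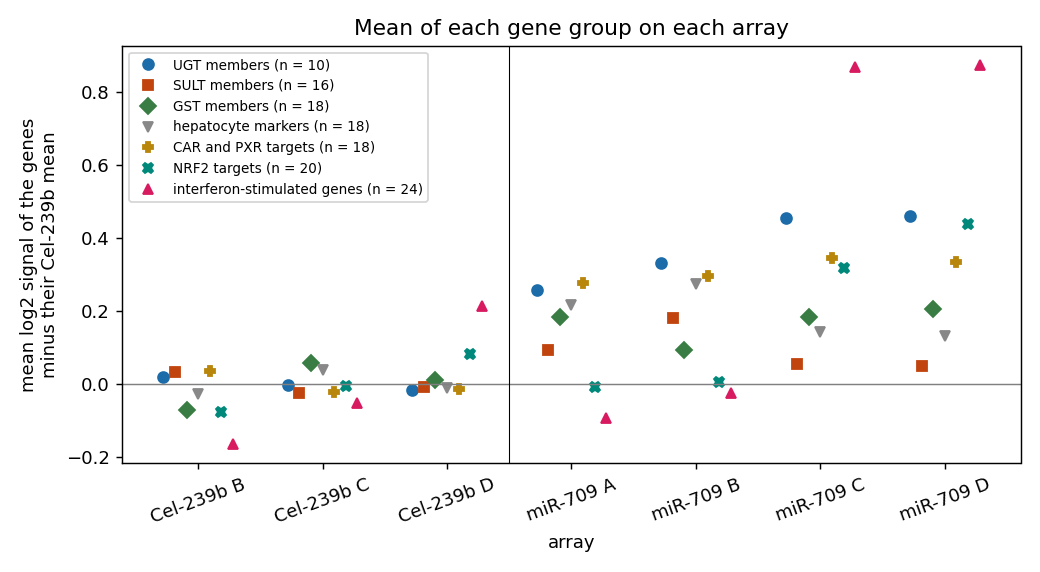
Mean log2 signal of the genes of a group on each array, minus the Cel-239b mean of the same genes, for 3 transferase families and 4 other lists. Interferon-stimulated genes and NRF2 targets are highest on miR-709 arrays C and D, while UGT genes and targets of CAR and PXR are above 0 on all 4 miR-709 arrays. The mean of the CAR and PXR targets includes *Cyp2c29*, with a log2 fold change of 2.48, where the median of that list was 0.15.

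The supply of the conjugating groups moved at single points. For this list and those that follow, the shares of all genes called were 1.81% higher and 1.47% lower. Most of these lists hold bright genes. Among all genes with a mean signal of at least 6, the same fit called 3.76% higher, and their median log2 fold change was 0.03. In the list for UDP-glucuronic acid, the sugar donor of the UGT enzymes, 2 of 10 measured genes were higher and 0 lower, with a median of 0.17. These were *Slc35d2*, a Golgi transporter of UDP-N-acetylglucosamine and other nucleotide sugars (7.26, 7.10 and 7.22 against 8.09, 8.13, 8.14 and 8.39, log2 fold change 0.99, limma adjusted p = 0.00029), and *Xylb*, the xylulose kinase at the end of the glucuronate pathway (0.40, limma adjusted p = 0.0069). Neither makes the donor itself. *Ugdh*, the dehydrogenase that does, was not called (0.30, limma adjusted p = 0.072) and is named after its value was seen.

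Of 11 measured genes for the supply and use of active sulfate, 1 was higher and 1 lower. *Bpnt1*, the phosphatase that removes the adenosine bisphosphate left over by sulfotransferases, fell from 10.16, 9.95 and 10.14 to 8.35, 8.48, 8.28 and 8.35 (log2 fold change -1.72, standard error 0.07). *Slc26a1*, a sulfate transporter, rose by 0.27 on the log2 scale (limma adjusted p = 0.023). Among 19 genes of glutathione synthesis and breakdown, 1 was higher, the 5-oxoprolinase *Oplah* of glutathione recycling (0.37, limma adjusted p = 0.047). Among 20 other conjugating enzymes, 1 was higher, *Baat*, which joins bile acids to taurine or glycine (6.92, 6.62 and 6.78 against 7.77, 7.66, 7.58 and 7.57, log2 fold change 0.87, limma adjusted p = 0.00056). Among 14 transporters that carry conjugates, 2 were higher, the uptake transporter *Slco1a4* (0.99) and the efflux pump family member *Abcc6* (0.35), and 0 were lower.

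Of 19 measured regulators of these genes, 2 were higher and 0 lower. *Hnf4a*, a nuclear receptor of hepatocyte identity, read 9.45, 9.43 and 9.31 with Cel-239b and 9.94, 9.95, 9.93 and 10.03 with miR-709 (log2 fold change 0.57, limma adjusted p = 0.0010). *Nr1i2*, which encodes the drug sensor PXR, read 6.91, 6.80 and 7.05 against 7.52, 7.41, 7.46 and 7.53 (0.56, limma adjusted p = 0.0028). Both were alike on all 4 miR-709 arrays.

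Known targets of these regulators were counted by list, where 1.81% of all genes and 3.76% of those with a mean signal of at least 6 were called higher. Of 18 targets of CAR and PXR, 3 were higher and 0 lower, with a median of 0.15, namely *Cyp2c29* (2.48), *Slco1a4* and the heme synthesis enzyme *Alas1* (0.37). Of 16 targets of the fatty acid receptor PPARA, 4 were higher and 0 lower, with a median of 0.17, among them the peroxisomal enzyme *Ehhadh* (1.00), the fatty acid transporter *Cd36* (0.85) and the thioesterase *Acot2* (0.56). Of 20 NRF2 targets outside the transferase families, 0 were called (3 at an unadjusted p under 0.05 by limma), although 19 lay above 0, with a median of 0.19, and their mean was -0.01, 0.01, 0.32 and 0.44 on miR-709 arrays A, B, C and D. Of 7 targets of the dioxin receptor AHR, 0 were called (2 at an unadjusted p under 0.05, 1 in each direction).

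Cell type markers moved beside the transferases. Of 18 hepatocyte markers, 3 were higher and 0 lower, *Tat* (0.61), *Cps1* (0.68) and *Hnf4a*, enzymes of tyrosine and ammonia metabolism and the receptor named above. The median log2 fold change of the hepatocyte list was 0.09, with 15 of 18 markers above 0. Its mean, which includes the called genes, was 0.13 to 0.27 on the miR-709 arrays and -0.03 to 0.04 on the Cel-239b arrays. Of 18 stellate cell markers, 3 were lower, the contractile genes *Acta2* (-1.34) and *Tagln* (-1.25) and the filament *Vim* (-0.40), and of 10 cholangiocyte markers 1 was lower, the keratin *Krt19* (-1.23). The medians of the log2 fold changes over the stellate cell and cholangiocyte lists were -0.02, with 5 of 18 markers above 0, and -0.05. The means of these 2 lists on the miR-709 arrays, which include the called genes, were -0.21 to -0.15 and -0.29 to -0.12. None of 15 sinusoidal endothelial and 19 Kupffer cell and leukocyte markers was called by limma (2 and 0 at an unadjusted p under 0.05). The methods state that a Percoll gradient was used to remove other liver cells from the hepatocytes. In such bulk RNA, fewer cells of a type and less RNA per cell cannot be told apart, and the part of these shifts in the transferase values was not tested.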

How the data were processed

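The authors processed Affymetrix Mouse Gene 1.0 ST arrays in Partek with RMA and deposited 1 log2 signal for each probe set and array, per the labels and methods. Versions are not given in the sources used here. RMA corrects background, gives all arrays 1 distribution and summarises probes into probe sets, which compresses low signals and would hide a shift common to all genes. Raw scans were not used here.

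Of 28853 probe sets, 21789 had 1 gene symbol, 1621 several and 5443 none, and 21698 symbols were matched by gene ID. The brightest probe set per gene gave 19938 genes. Treatments were compared with limma (version 3.58.1, R version 4.3.3), with Benjamini-Hochberg adjustment over all genes. The methods' 1-way ANOVA, here called the methods' t-test, was an alternative. Precision is limited by the number of arrays. Standard errors of log2 fold changes had a median of 0.076. On simulated data of 19938 genes for this comparison limma called 68 of 68 genes changed by 1.5, 63 of 66 changed by 0.75 and 38 of 66 changed by 0.4 (log2 units), and 7 of 176 calls were false. The simulated noise was independent between genes, whereas genes such as the interferon-stimulated ones shifted together on miR-709 arrays C and D. These shares may thus not hold for the real arrays.

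The members and the 16 gene lists were chosen with earlier results of these data known. Named were every called member, the 6 members of lowest p and the 2 brightest of each family, the 3 called genes of lowest p of each other list, *Cyp2c29* and *Bpnt1*. Other members, named for their place in a cluster or as relatives, were chosen after their values were seen. Promoters were searched for 7 motifs on both strands. The 20 alternatives changed the test (limma-trend, array weights, the methods' t-test), the probe sets (all of them, or their mean per gene), the filter (mean signal of at least 5 or 6), the scaling (cyclic loess, median centring, another quantile normalization), the block (replicate letter, random or fixed) and the arrays (each left out, and miR-709 arrays C and D left out together).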

Additional observations from a re-analysis of the deposited data

Results flagged for a closer look

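Of the 47 transferase genes, 2 had a miR-709 array set apart from the other 3, where the gap to the nearest array, divided by the range of the 4, was above the 95% critical value of Dixon's test. About 1 in 20 groups would be set apart in this way by chance. *Gstk1*, the mitochondrial and peroxisomal kappa class transferase, was lowest on array C at 7.98, with a ratio of 0.833. *Mgst1* was highest on array B at 11.31, with a ratio of 1.0, since the other 3 arrays all read 11.29 to the 2 decimals deposited. Neither gene was called between treatments.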

How the results depend on the processing

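The count of transferase genes called higher, 4 of 47, was 0 with the methods' t-test after Benjamini-Hochberg adjustment (11 at an unadjusted p under 0.05, where 7.77% of all genes were higher), 7 of the 30 left with a mean signal of at least 5 or of at least 6, 2 to 3 when 1 array was left out and 2 without miR-709 arrays C and D. *Ugt2b35* and *Ugt3a1* were called in 7 of the 7 fits that leave out an array, *Ugt2b1* in 3 and *Gstm3* in 1. All 4 had a log2 fold change above 0 in the 20 alternatives. Of all genes, 361 were higher, which became 113 with the methods' t-test, 555 with a mean signal of at least 6, 180 to 294 when 1 array was left out and 76 without arrays C and D. The 293 lower became 113, 181 to 244 and 92 under the t-test, the array left out and arrays C and D left out. In the 145 genes of the cofactor, regulator and target lists, the count called higher was 15 and became 25 with a mean signal of at least 6 and 8 without arrays C and D, and the count called lower was 1 and became 2 with the mean of probe sets and 2 without arrays C and D. Same-lettered arrays of the treatments did not deviate together (correlations 0.019, 0.017 and 0.046). With so few arrays this does not show whether the letters pair the samples, and the main fit did not pair them. With the letter as a fixed replicate block, 5 transferase genes were called, *Ugt2b35*, *Ugt3a1*, *Ugt2b5*, *Sult1a1* and *Gstm4*, and 180 of all genes were higher. Replicate A has no Cel-239b array, so array A does not inform the change in this fit. The log2 fold changes, such as 0.83 for *Ugt2b35* and 0.76 for *Ugt3a1*, equal those without miR-709 replicate A. The causes were not tested.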
